A study of Mus musculus with 31 samples.

Results

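The Slc25 family holds the carrier proteins of the inner mitochondrial membrane. Its members in the basolateral amygdala (BLA) of mice were taken as the protein-coding genes whose GENCODE symbol begins with Slc25a and that had at least 10 reads in at least 7 of 31 mice, which gave 40 of the 47 such genes in the tables. The other 7 genes were Slc25a2, Slc25a21, Slc25a30, Slc25a31, Slc25a41, Slc25a43 and Slc25a54. Of these, Slc25a43 came closest to the limit with 10 or more reads in 6 mice, and Slc25a21 had them in 4 mice. Just inside the limit were Slc25a24 with 12 mice and Slc25a32 with 14 mice, while 32 members had 10 or more reads in every mouse. The members were part of 17428 genes that passed this limit, of 48709 genes in the tables.

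RNA was sequenced from the BLA of WT mice and of littermates that overexpress human CYFIP1 (CYFIP1 OE) from a bacterial artificial chromosome injected into C57BL/6N pronuclei. CYFIP1 is a gene of the chromosome region duplicated in Dup15q syndrome, and the comparison asks how the amygdala transcriptome differs with its overexpression. The sample labels name the transgenic lines 1 and 3, each of which descends from 1 founder and so carries its own insertion. WT line 1 held 8 mice (4 males and 4 females, 59 to 61 days old) and WT line 3 held 8 mice (4 males and 4 females, 58 to 60 days old). CYFIP1 OE line 1 held 7 mice (3 males and 4 females, 59 to 77 days old, 4 of them aged 77 days) and CYFIP1 OE line 3 held 8 mice (4 males and 4 females, 58 to 64 days old). Left and right BLA punches were pooled for each mouse, and 1 mouse was 1 replicate. QuantSeq, the method used, sequences transcripts from their polyadenylated end only. Levels in CPM (counts scaled to a library size common to all mice) were therefore compared between genes without division by length.

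Total counts ranged from 5286717 to 8685334 per mouse. The counts of mouse Cyfip1, which check the transgene only as far as reads of the human gene map to it, did not separate the genotypes, with means of 33.6 ± 4.31 CPM in CYFIP1 OE line 1 (SD, n = 7), 31.7 ± 4.87 CPM in WT line 1 (n = 8), 32.5 ± 3.2 CPM in CYFIP1 OE line 3 (n = 8) and 35.3 ± 3.47 CPM in WT line 3 (n = 8). A single male CYFIP1 OE line 3 mouse stood apart from the other 30 with a connectivity Z-score of -4.74, against -1.18 for the next lowest mouse. This Z-score measures how well a mouse's expression profile correlates with those of all others, and results that rest on this low-connectivity mouse are given with and without it. In line 1, 7 of the 8 WT mice share 1 group of sample names, and only 1 name group holds both genotypes, so genotype and name group cannot be told apart there. In line 3 all 4 name groups hold both genotypes. As a check of the tissue, the 6 markers of BLA principal neurons summed to 52.8 to 1415 CPM per mouse (median 360) and 7 markers of striatal neurons, a neighbouring region, summed to 249 to 5918 CPM (median 3186), and both sums varied widely between mice. In such bulk tissue, fewer cells of a type and less RNA per cell cannot be told apart.

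Oxidative metabolism depends on the exchange of nucleotides, phosphate, carboxylic acids, amino acids, cofactors and metal ions across the inner mitochondrial membrane, which is otherwise closed to them. Slc25 carriers perform this exchange, each built from repeats of the same transmembrane motif and most specific for a few related substrates. In brain they deliver ATP to synapses, pass reducing equivalents through the malate-aspartate shuttle and feed glutamate into mitochondria, and several differ between neurons and glia.

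The promoters of the members were read from the RefSeq table of the GRCm38.p6 build, which held 40 promoters for 31 of the 40 members, each from 250 bases before to 50 bases after the start of a transcript. Both strands were searched for 6 exact motifs. The GC box (GGGCGG) was in 87.5% of the member promoters and in 35.7% of all 32851 promoters in the table, and the CCAAT box (CCAAT) was in 50% and 37.4%. The TATA box (TATAAA) was in 2.5% of member promoters, namely that of Slc25a18, and in 13.6% of all promoters. The core of the nuclear respiratory factor motif (GCGCATGC) was in 0% and 2.71%, the nuclear receptor motif (AAGGTCA) in 2.5% and 4.72%, and the cyclic AMP element (TGACGTCA) in 5% and 1.79%. Member promoters had a median GC content of 59.3%, against 52.7% for all promoters. The set of all promoters was not limited to genes that passed the read limit, as the members were. Members with several starts, some of them overlapping, were counted once per start. These shares therefore do not show a trait particular to the family. The 150 bases before the start are printed for Slc25a5 and Slc25a33 and for Slc25a18 and Slc25a36, the members of 2 pairs that co-varied between mice as described below. Capitals mark the matches to these motifs. The stretches are chrX:36795447-36795596 (plus strand), chr4:149774268-149774417 (minus strand), chr6:120773618-120773767 (plus strand) and chr9:97111042-97111191 (minus strand), in that order.
Slc25a5: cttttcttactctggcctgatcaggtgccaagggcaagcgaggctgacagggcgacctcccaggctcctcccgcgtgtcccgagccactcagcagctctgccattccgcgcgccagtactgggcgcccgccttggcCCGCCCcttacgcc
Slc25a33: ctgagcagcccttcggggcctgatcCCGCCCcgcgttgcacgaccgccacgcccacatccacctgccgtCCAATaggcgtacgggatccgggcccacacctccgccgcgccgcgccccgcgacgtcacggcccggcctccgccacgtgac
Slc25a18: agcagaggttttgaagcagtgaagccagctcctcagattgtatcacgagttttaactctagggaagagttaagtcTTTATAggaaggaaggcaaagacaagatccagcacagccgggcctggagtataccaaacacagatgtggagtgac
Slc25a36: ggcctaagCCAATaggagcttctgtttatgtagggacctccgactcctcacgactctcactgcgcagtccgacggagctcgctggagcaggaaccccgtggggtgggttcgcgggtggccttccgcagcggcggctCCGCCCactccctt
The stretches of Slc25a5, Slc25a33 and Slc25a36 each hold a GC box in its reverse complement form, and those of Slc25a33 and Slc25a36 also hold a CCAAT box. That of Slc25a18 holds the TATA box letters only in their reverse complement form (TTTATA), so a TATA box in the direction of the gene is not shown.

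The members spanned a 335-fold range of level, from 416 ± 43.1 CPM for Slc25a4 to 1.24 ± 0.64 CPM for Slc25a32 (mean ± SD, n = 31). The 40 members summed to 1745 ± 101 CPM, and the 3 highest of them made up 48.2% of that sum. The median member stood at 13.5 CPM, next to 13.4 CPM for the 13761 protein-coding genes that passed the same limit. There were 23 members at 10 CPM or more and 8 under 5 CPM.

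The 6 carriers of adenine nucleotides and phosphate made up 54.8% of the summed member CPM. Slc25a4 and Slc25a5 encode the ADP/ATP exchangers ANT1 and ANT2, and Slc25a3 encodes the carrier that brings in the phosphate for ATP synthesis. Slc25a4 ranged from 314 to 510 CPM (median 411). Slc25a3 ranged from 224 to 360 CPM (median 297) and lay below Slc25a4 in 31 of 31 mice. Slc25a5 ranged from 36.9 to 214 CPM (median 128) and was far more variable than the other exchanger. The ratio of Slc25a4 to Slc25a5 had a median of 3.32 and a range of 1.95 to 8.51, where the highest ratio was that of the low-connectivity mouse and the other 30 mice reached 5.74. The end of the Slc25a5 transcript is not unique, since 48.5% of the 31-base words in the final 500 bases occur in other genes, most of them in the pseudogene Slc25a5-ps, which had 0 reads in every mouse. The calcium-regulated exchangers of ATP-Mg and phosphate were unequal, with Slc25a23 at 96.2 ± 12.7 CPM, Slc25a25 at 17 ± 4.08 CPM and Slc25a24 at 1.31 ± 0.866 CPM.

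Carriers of amino acids, acylcarnitine and glutathione, 11 members, made up 15.1% of the sum. Slc25a44, a carrier of branched-chain amino acids, led them with 71.1 ± 8.76 CPM. The aspartate-glutamate carriers of the malate-aspartate shuttle were represented mainly by Slc25a12 (aralar), at 59.4 ± 8.12 CPM, against 3.14 ± 1.42 CPM for Slc25a13 (citrin), with Slc25a12 higher in 31 of 31 mice and a median ratio of 16.3. The glutamate carrier Slc25a22 ranged from 9.81 to 71.4 CPM (median 35.6). Its relative Slc25a18, known as the glutamate carrier of astrocytes, ranged from 3.1 to 20.4 CPM (median 9.97). Their ratio ran from 0.578 to 10 between mice with a median of 3.61, and Slc25a22 was higher in 29 of 31 mice. Slc25a39, a glutathione carrier, stood at 43.5 ± 10.4 CPM and its relative Slc25a40 at 9.24 ± 2.47 CPM, where 31.6% of the terminal words of Slc25a40 are shared with the pseudogene Gm5066.

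The 9 carriers of cofactors and pyrimidine nucleotides made up 12.6% of the sum, with the NAD+ carrier Slc25a51 highest at 93.8 ± 8.65 CPM. The 2 uncoupling protein-like carriers made up 5.6%, and here Slc25a14 (UCP5) was higher than Slc25a27 (UCP4) in 31 of 31 mice, at 87.1 ± 14.1 CPM against 10.5 ± 3.14 CPM. The 3 carriers of di- and tricarboxylates made up 4.97%, led by the oxoglutarate/malate carrier Slc25a11 at 49.1 ± 8.15 CPM. The outer membrane protein Slc25a46, which takes part in mitochondrial shape and lipid handling, contributed 3.56% at 62.1 ± 9.81 CPM. The mitoferrins, which import iron, made up 2.1%, with Slc25a37 (mitoferrin 1) at 23.2 ± 5.4 CPM and Slc25a28 (mitoferrin 2) at 13.5 ± 2.94 CPM. Of the terminal words of Slc25a37, 39.9% are shared with the predicted gene Gm16867, whose median was 0 reads. The 6 members of uncertain substrate together made up 1.32%, and among them Slc25a34, Slc25a35 and Slc25a45 were near 2 CPM (2.52 ± 1.24, 2.3 ± 1.78 and 2.3 ± 1.25 CPM).

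Neighbours in this order mostly could not be separated. In 34 of the 39 neighbouring pairs, the mean log2 difference was smaller than the SD of that difference over the mice. The clearest steps were from Slc25a4 to Slc25a3, by 0.48 ± 0.18 on the log2 CPM scale, and from Slc25a3 to Slc25a5, by 1.28 ± 0.41 (SD, n = 31). Slc25a23 and Slc25a51 differed by 0.03 ± 0.25, with Slc25a23 higher in 15 of 31 mice.

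The spread between mice beyond counting error, given as the biological coefficient of variation from edgeR, had a median of 24.8% over the members and 33.1% over all genes tested. At 10 CPM or more it was 20.8% for members and 21.7% for the 8449 genes of that level. It was smallest for Slc25a51 (7.97%), Slc25a3 (9.5%), Slc25a4 (9.99%) and Slc25a44 (11.8%). It was largest for Slc25a35 (66%), Slc25a24 (58.6%), Slc25a47 (56.1%) and Slc25a45 (55.3%), all members under 3 CPM. Without the low-connectivity mouse Slc25a47 came to 44.9%, and Slc25a5 moved from 30.6% to 24.8%. Slc25a22 stood out among members of its level with 45.6%.

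The median pair of members was nearly uncorrelated. After sex, line and genotype had been removed by linear regression from the log2 CPM, the 780 pairs of members had a median Pearson r of 0.011 over the 31 mice, next to 0.000 for all pairs of the 13761 protein-coding genes. An r of 0.5 or more was reached by 1.92% of member pairs and by 2.5% of all gene pairs. Each pair was tested by a two-sided permutation test with 100000 resamples and Benjamini-Hochberg adjustment over the 780 pairs. At an adjusted p under 0.05 there were 4 positive pairs and 1 negative pair, and these 5 held with and without the low-connectivity mouse. They had the same sign in both lines, but they were chosen over the same mice, so this is no separate test. Over all 780 pairs, line 1 and line 3 without that mouse agreed in sign for 404. The r values of the pairs in these 2 sets of mice correlated at 0.07.

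The closest pair was Slc25a5 with Slc25a33, a carrier of pyrimidine nucleotides. Their r was 0.76 and their Spearman rho 0.81 (n = 31, permutation p of 1e-05 for each, the smallest that these permutations can give, adjusted p = 0.0078 for each). Without the 2 mice farthest from the median of Slc25a5 r was 0.80, and without the low-connectivity mouse it was 0.78. It was 0.81 in line 1 and 0.75 in line 3. Slc25a33 also rose and fell with the phosphate carrier Slc25a3, at r = 0.68 and rho = 0.66 (n = 31, permutation p = 5e-05 and 0.00012, adjusted p = 0.0195 and 0.0468), with r = 0.60 without the 2 farthest mice, 0.48 in line 1 and 0.71 in line 3. By substrate, these pairs join carriers of purine and pyrimidine nucleotides and of phosphate. The same genes also had positive r with the score of striatal markers described below. It was 0.50 for Slc25a5, 0.60 for Slc25a33 and 0.53 for Slc25a3 (adjusted permutation p = 0.0773, 0.00769 and 0.0307). Without the low-connectivity mouse these r were 0.31, 0.54 and 0.47. The part of marker scores in these pairs was not tested. The other pyrimidine nucleotide carrier, Slc25a36, had an r of -0.12 with Slc25a33 (n = 31, permutation p = 0.526, adjusted p = 0.845).

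Slc25a36 was paired instead with the astrocytic glutamate carrier Slc25a18, with r = 0.64 and rho = 0.61 (n = 31, permutation p = 0.00014 and 0.00043, adjusted p = 0.0364 and 0.112). Within lines this r was 0.25 in line 1 and 0.79 in line 3, and it was 0.55 without the 2 farthest mice. Slc25a36 and Slc25a14 moved in opposite directions at r = -0.63 and rho = -0.59 (n = 31, permutation p = 0.00031 and 0.00061, adjusted p = 0.0484 and 0.119), with r = -0.54 without the 2 farthest mice, -0.32 in line 1 and -0.73 in line 3. Citrin (Slc25a13) and Slc25a25 had r = 0.61 and rho = 0.53 (n = 31, permutation p = 0.00026 and 0.00233, adjusted p = 0.0484 and 0.202), with r = 0.54 without the 2 farthest mice, 0.58 in line 1 and 0.66 in line 3. For these 3 pairs the rank correlation did not pass the adjusted threshold.

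Other strong correlations rested on the low-connectivity mouse. Slc25a5 with Slc25a28 and Slc25a39 with Slc25a46 each had an r of 0.62 over 31 mice, which came to 0.34 and 0.41 without that mouse. The negative r of Slc25a46 with Slc25a5 (-0.63) and with Slc25a4 (-0.59) came to -0.34 and -0.41 without it. Close relatives in the family gave lower values, and none of their pairs passed the adjusted threshold. Their r was 0.51 for Slc25a4 and Slc25a5 (0.27 without the low-connectivity mouse), 0.00 for Slc25a12 and Slc25a13, 0.09 for Slc25a22 and Slc25a18, -0.10 for Slc25a37 and Slc25a28, 0.13 for Slc25a39 and Slc25a40, 0.15 for Slc25a14 and Slc25a27, -0.11 for Slc25a23 and Slc25a25, and -0.27 for Slc25a23 and Slc25a24.

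**Figure D1:**
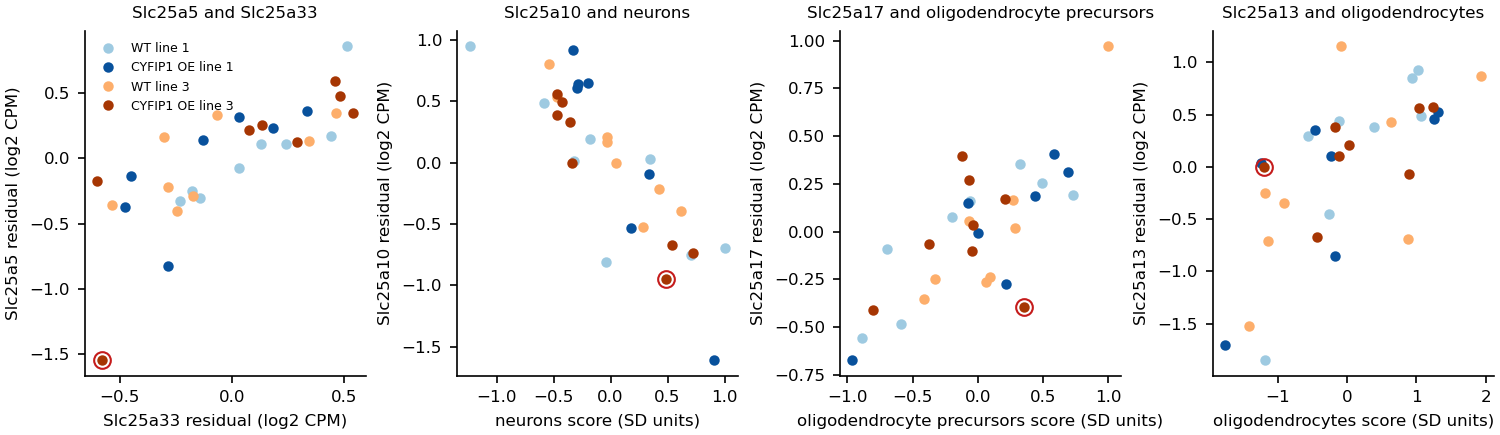
Residual log2 CPM of members in 31 mice after sex, line and genotype were removed, against another member (first panel) or a marker score in SD units (other panels); points are mice coloured by group and the red ring marks the low-connectivity mouse. Slc25a5 rises with Slc25a33 (r = 0.76), Slc25a10 falls with the neuron score (r = -0.85), and Slc25a17 and Slc25a13 rise with the oligodendrocyte precursor and oligodendrocyte scores (r = 0.75 and 0.67).

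Marker genes of cell types differed in level between the punches, so each member was compared with scores of 10 marker lists for neurons, glia, vessels and choroid plexus, each the mean of standardised residuals of the list's genes. Of the 400 relations, 26 passed an adjusted p of 0.05 by permutation of r, 21 did so without the low-connectivity mouse, and 19 did so in both cases. An absolute r of 0.5 or more was reached by 8% of the 400 relations, next to 7.22% of the relations of all 13761 protein-coding genes with the same scores, leaving out each list's own genes. These shares were 6.75% and 7.52% without the low-connectivity mouse, so the members' share was close to that of all genes. The 19 relations involved 11 members, and rho also passed for 17 of them over the 31 mice. They had the same sign in both lines, but they were chosen over the same mice, so this is no separate test. The scores were themselves related, with an r of 0.74 between BLA principal neurons and all neurons and of -0.77 between BLA principal neurons and oligodendrocytes.

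**Figure D2:**
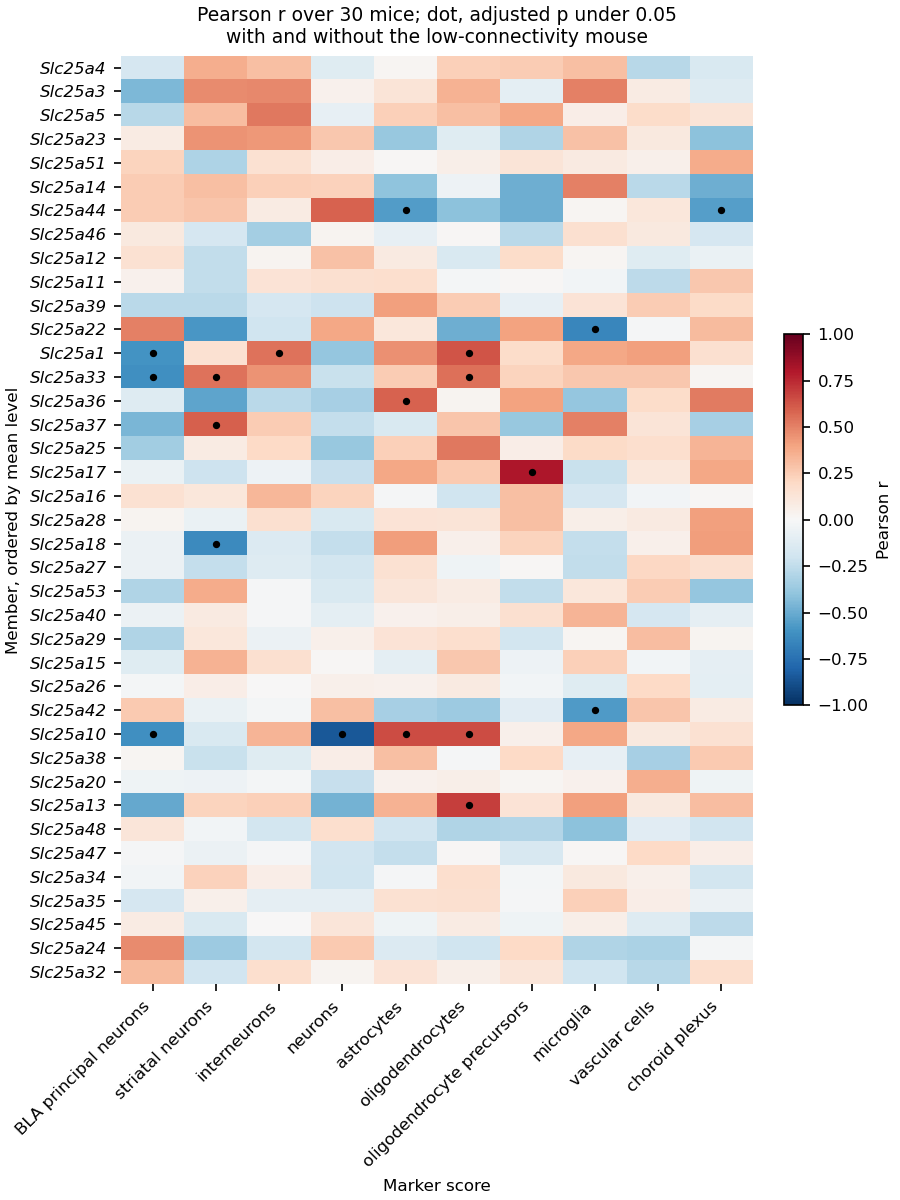
Pearson r of the members (rows, ordered by level) with 10 marker scores (columns) over the 30 mice without the low-connectivity mouse; red is positive and blue negative, and black dots mark the 19 relations with an adjusted p under 0.05 with and without that mouse. Most dots lie with Slc25a10, Slc25a1 and Slc25a33.

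The dicarboxylate carrier Slc25a10, which exchanges malate and succinate for phosphate, had the strongest relation of all. Its level ranged from 1.62 to 12.5 CPM (median 6.71). It was lower where neuronal markers were higher, with r = -0.85 and rho = -0.82 (n = 31, permutation p = 1e-05 for each, the smallest these permutations can give, adjusted p = 0.00133 and 0.002), and r remained -0.85 without the 2 farthest mice. Within lines r was -0.83 in line 1 and -0.93 in line 3. Slc25a10 was higher where oligodendrocyte markers were higher (r = 0.67) and where astrocyte markers were higher (r = 0.58), and lower with markers of BLA principal neurons (r = -0.62). Slc25a10 overlaps the predicted gene Gm11788 on the other strand, and the strand setting of the counting is not given in the sources used here.

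Slc25a17, a peroxisomal carrier of coenzyme A, FAD and NAD, followed oligodendrocyte precursor markers at r = 0.75 and rho = 0.64 (n = 31, permutation p = 1e-05, the smallest these permutations can give, and 0.00026, adjusted p = 0.00133 and 0.0116). Without the low-connectivity mouse r was 0.81, and without the 2 farthest mice it was 0.64. Within lines it was 0.86 in line 1 and 0.65 in line 3. The highest of the 31 Slc25a17 values, 31.4 CPM in a WT line 3 mouse, was also from the mouse with the highest precursor score. Citrin (Slc25a13) followed oligodendrocyte markers at r = 0.67 and rho = 0.75 (n = 31, permutation p = 6e-05 and 1e-05, adjusted p = 0.00343 and 0.002), with r = 0.60 without the 2 farthest mice, 0.75 in line 1 and 0.59 in line 3. So did the citrate carrier Slc25a1, which exports citrate for lipid synthesis, at r = 0.66 and rho = 0.63 (n = 31, permutation p = 6e-05 and 0.00029, adjusted p = 0.00343 and 0.0116), with r = 0.60 without the 2 farthest mice.

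Both glutamate carriers were related to marker scores, in different ways. Slc25a22 was lower with microglial markers (r = -0.66, rho = -0.66, n = 31, permutation p = 7e-05 and 0.00011, adjusted p = 0.0035 and 0.00629, r = -0.66 without the 2 farthest mice). Without the low-connectivity mouse it was also lower with striatal markers at r = -0.58 (adjusted permutation p = 0.0205), where the r over 31 mice had been -0.35. Slc25a18 was lower with striatal markers (r = -0.69, rho = -0.55, n = 31, permutation p = 1e-05, the smallest these permutations can give, and 0.00135, adjusted p = 0.00133 and 0.035, r = -0.55 without the 2 farthest mice). Its r with astrocyte markers was not among the relations that passed. Slc25a36, its partner above, was higher with astrocyte markers (r = 0.59, rho = 0.54, n = 31, permutation p = 0.00038 and 0.00209, adjusted p = 0.0109 and 0.043). Slc25a36 was also higher with choroid plexus markers (r = 0.55) and lower with striatal markers (r = -0.57), with adjusted permutation p of 0.0236 and 0.0179 over 31 mice. Without the low-connectivity mouse these adjusted permutation p were 0.0502 and 0.0504. The branched-chain amino acid carrier Slc25a44 had the opposite relation to astrocyte markers (r = -0.57) and was lower with choroid plexus markers (r = -0.58). Slc25a37 followed striatal markers at r = 0.54 over 31 mice and 0.60 without the low-connectivity mouse, with 0.09 in line 1 and 0.77 in line 3.

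Slc25a33 was higher with striatal markers (r = 0.60) and oligodendrocyte markers (r = 0.58) and lower with markers of BLA principal neurons (r = -0.62), and each of these held without the low-connectivity mouse. Its partner Slc25a5 followed interneuron markers at r = 0.72 and rho = 0.66 (n = 31, permutation p = 4e-05 and 0.00013, adjusted p = 0.0032 and 0.0065), where r was 0.53 without the low-connectivity mouse (adjusted p = 0.0502 by permutation) and 0.49 without the 2 farthest mice. The CoA carrier Slc25a42 was lower with microglial markers (r = -0.58). Slc25a46 had r = -0.63 with interneuron markers, which came to -0.34 without the low-connectivity mouse. Of the members, Slc25a24 had the highest r with BLA principal neurons (0.46, adjusted p = 0.0844 by permutation) and Slc25a44 the highest with all neurons (0.50, adjusted p = 0.0545 by permutation). The highest without the low-connectivity mouse were Slc25a22 with BLA principal neurons (0.50, adjusted p = 0.0672 by permutation) and Slc25a44 with all neurons (0.59, adjusted p = 0.0205 by permutation). No member passed for vascular cells, where r ran from -0.32 (Slc25a24) to 0.36 (Slc25a20). Relations given above by r alone for Slc25a10, Slc25a44, Slc25a37, Slc25a33, Slc25a42 and Slc25a46 were among the 26 that passed over the 31 mice. The remaining extremes did not pass. They were Slc25a37, highest with microglia (r = 0.48), Slc25a44, lowest with oligodendrocyte precursors (-0.50), and Slc25a22, lowest with oligodendrocytes (-0.37). How far cell composition accounts for the differences between mice was not tested.

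The genotype comparison asked whether carrier transcripts differ between CYFIP1 OE and WT mice. Levels of the family as a whole overlapped between the groups. The summed member CPM was 1714 ± 106 in CYFIP1 OE line 1 (n = 7, 1628 to 1923) and 1775 ± 77.5 in WT line 1 (n = 8, 1713 to 1959). In line 3 it was 1738 ± 137 in CYFIP1 OE mice (n = 8, 1478 to 1893), or 1775 ± 95.4 without the low-connectivity mouse, and 1749 ± 85.7 in WT mice (n = 8, 1646 to 1857). Across both lines 13 members were higher and 27 lower in CYFIP1 OE mice, where 48.74% of all genes tested were higher. The median log2 fold change of members was -0.05, next to -0.005 over all genes tested. The log2 fold change of every member lay within 0.5.

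With edgeR's quasi-likelihood test and Benjamini-Hochberg adjustment over all 17428 genes, 0 of the 40 members passed an adjusted p of 0.05 in both lines together, in line 1 or in line 3, and DESeq2 gave 0 as well. At an unadjusted p under 0.05 there was 1 member in both lines together (2.5%), where 4.3% of all genes tested reached that p, and DESeq2 also gave 1. In line 1 there were 0 members where 3.96% of all genes reached it, and DESeq2 gave 0. In line 3 there were 4 members (10%) where 7.95% of all genes reached it, and DESeq2 gave 5. With DESeq2 the shares of all genes were 4.67% over both lines, 4.37% in line 1 and 8.52% in line 3. The CYFIP1 OE and WT values overlapped in all 40 members, within each line and over both, and of all 17428 genes 0.0402% did not overlap in line 1, 0.0115% in line 3 and 0% over both.

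**Figure D3:**
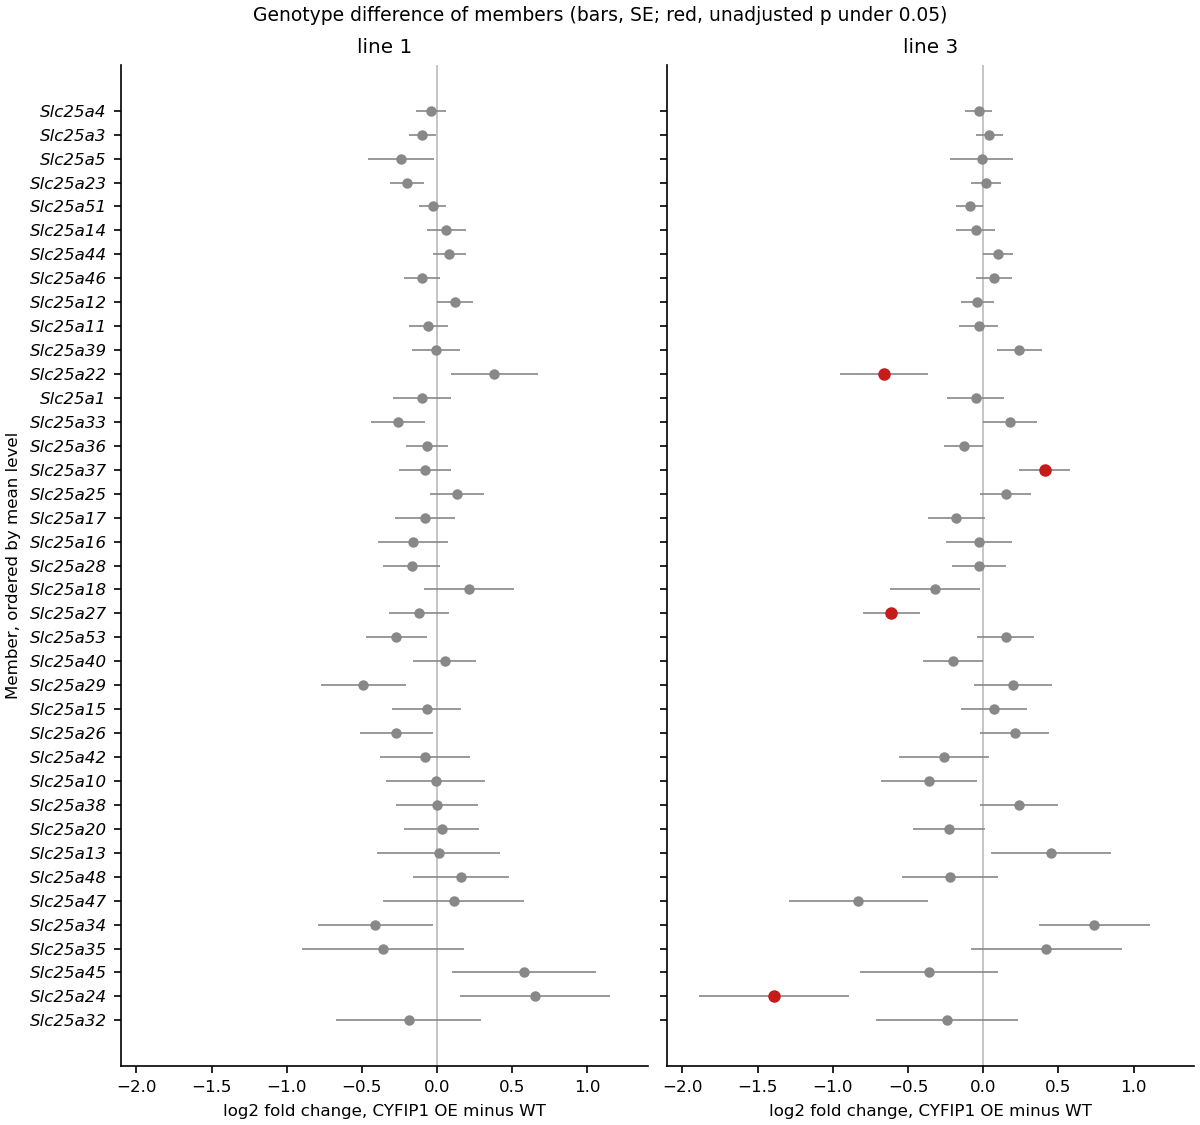
Log2 fold change between CYFIP1 OE and WT mice for the members in line 1 (left) and line 3 (right); bars are SE from edgeR and red points have an unadjusted p under 0.05. No member is red in line 1, and Slc25a22, Slc25a37, Slc25a27 and Slc25a24 are red in line 3.

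Slc25a27, the uncoupling protein-like carrier UCP4 found mainly in brain (chr17:43641891-43667214, minus strand, GENCODE on GRCm38), had the smallest p of the 4 members with an unadjusted p under 0.05 in line 3. Its values in line 3 were 5.38 to 10.3 CPM in CYFIP1 OE mice (median 7.85, n = 8) and 8.61 to 14.2 CPM in WT mice (median 11.8, n = 8). Each of the 8 CYFIP1 OE values was under the mean of the WT mice, though the ranges overlapped. The log2 fold change was -0.61 ± 0.19 (SE, edgeR adjusted p = 0.513). In line 1 the values were 7.96 to 15.5 CPM in CYFIP1 OE mice (median 10.5, n = 7) and 8.21 to 20.7 CPM in WT mice (median 10.9, n = 8), with a log2 fold change of -0.12 ± 0.20 (edgeR adjusted p = 1). Over both lines it was -0.37 ± 0.14 (edgeR adjusted p = 0.999), where 12 of 15 CYFIP1 OE values were under the mean of WT mice. The difference between the lines was -0.50 ± 0.27 (edgeR adjusted p = 0.671). The low-connectivity mouse was the lowest of the 31 for this gene, and without it the line 3 difference was -0.54, with the unadjusted p still under 0.05. Over the 31 mice the largest r of Slc25a27 with any marker score was -0.30, for microglia. Within line 3 its r with BLA principal neurons was -0.57, and -0.45 without the low-connectivity mouse, where line 1 gave -0.11. Within line 3 these 6 markers summed to 84.6 to 1415 CPM in CYFIP1 OE mice, the highest being the low-connectivity mouse, and to 297 to 803 CPM in WT mice. Their part in the difference was not tested.

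Slc25a24, the calcium-regulated carrier with the lowest level of its kind (chr3:109123149-109168457, plus strand), had 0 to 1.09 CPM in CYFIP1 OE line 3 mice (median 0.672, n = 8) and 0.915 to 3.67 CPM in WT line 3 mice (median 1.7, n = 8). Again each of the 8 CYFIP1 OE values was under the mean of the WT mice, at a depth of a few reads each, since the median over the 31 mice was 8 reads. The 12 mice with 10 or more reads included no CYFIP1 OE line 3 mouse. The gene thus passed the read limit through the other groups, and its line 3 difference and its difference between the lines carry this limit. The log2 fold change was -1.39 ± 0.50 (edgeR adjusted p = 0.513). In line 1 the direction was the other one, with 1.01 to 2.74 CPM in CYFIP1 OE mice (median 1.47, n = 7), 0.13 to 3.23 CPM in WT mice (median 0.853, n = 8) and a log2 fold change of 0.65 ± 0.50 (edgeR adjusted p = 1).

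The glutamate carrier Slc25a22 (chr7:141429744-141437892, minus strand) had 14.7 to 49.6 CPM in CYFIP1 OE line 3 mice (median 24.4, n = 8) and 20.9 to 63.4 CPM in WT line 3 mice (median 39.1, n = 8). Of the 8 CYFIP1 OE values 7 were under the mean of the WT mice, with a log2 fold change of -0.66 ± 0.29 (edgeR adjusted p = 0.583). Without the low-connectivity mouse it was -0.54, and within the name groups of line 3 it was -0.51, and in both cases the unadjusted p was no longer under 0.05. In line 1 the values were 9.81 to 71.4 CPM in CYFIP1 OE mice (median 47.3, n = 7) and 17.3 to 57.4 CPM in WT mice (median 32.6, n = 8), with a log2 fold change of 0.38 ± 0.29 (edgeR adjusted p = 1). The marker sums that moved with this gene between mice overlapped between the genotypes of line 3. Microglial markers summed to 212 to 330 CPM in CYFIP1 OE and 160 to 268 CPM in WT mice, and striatal markers to 288 to 5918 and 249 to 5316 CPM. Their part in the difference was not tested.

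Slc25a37, mitoferrin 1 (chr14:69241848-69285112, minus strand), was the only one of the 4 with higher values in CYFIP1 OE line 3 mice, at 19.2 to 34 CPM (median 26, n = 8) against 11.6 to 27.4 CPM in WT mice (median 18.8, n = 8). Of the 8 CYFIP1 OE values 7 exceeded the mean of the WT mice, with a log2 fold change of 0.41 ± 0.17 (edgeR adjusted p = 0.552). In line 1 it was -0.08 ± 0.17 (edgeR adjusted p = 1). This gene followed striatal markers in line 3 (r = 0.77), whose sums are given above, and their part in the difference was not tested. In line 1 the smallest p was that of the calcium-regulated carrier Slc25a23, at -0.20 ± 0.11 (edgeR adjusted p = 1), with 90.2 ± 10.4 CPM in CYFIP1 OE mice (n = 7) and 103 ± 12.5 CPM in WT mice (n = 8). Without the mice aged 77 days, all of them CYFIP1 OE line 1 mice, it was -0.09.

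**Figure D4:**
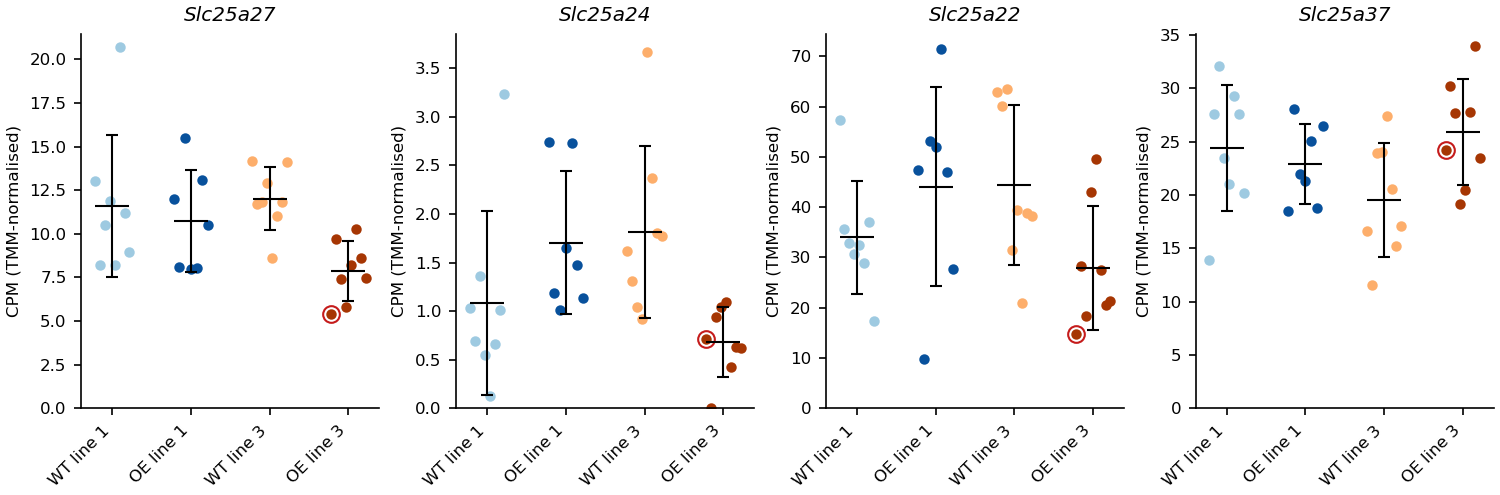
CPM of Slc25a27, Slc25a24, Slc25a22 and Slc25a37 in each mouse by group; points are mice, black bars are the mean and SD, and the red ring marks the low-connectivity mouse. In line 3 the CYFIP1 OE means are lower for Slc25a27, Slc25a24 and Slc25a22 and higher for Slc25a37, and the ranges overlap in every panel.

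The difference between the lines was tested directly as the line 3 difference minus the line 1 difference. With edgeR or DESeq2 0 members passed the adjusted p. DESeq2 gave 3 members at an unadjusted p under 0.05, where 8.66% of all genes reached it. With edgeR there were 3 members (7.5%) at that unadjusted p, where 8.1% of all genes reached it. They were Slc25a24 (-2.04 ± 0.71, edgeR adjusted p = 0.534), Slc25a22 (-1.04 ± 0.41, edgeR adjusted p = 0.55) and Slc25a34, a carrier of uncertain substrate (1.16 ± 0.53, edgeR adjusted p = 0.581). Slc25a34 had 1.04 to 5.73 CPM in CYFIP1 OE line 3 mice (median 2.97, n = 8) and 0.653 to 3.11 CPM in WT line 3 mice (median 2.26, n = 8), and its highest value was that of the low-connectivity mouse. Without that mouse the difference between the lines was 1.03 for Slc25a34, and without the mice aged 77 days it was 0.92, and in both cases the unadjusted p was no longer under 0.05. That of Slc25a22 came to -0.14 with 5 surrogate variables, and its unadjusted p was no longer under 0.05 either. In line 1 Slc25a34 had 1.06 to 3.38 CPM in CYFIP1 OE mice (median 2.09, n = 7) and 0.987 to 3.91 CPM in WT mice (median 2.93, n = 8).

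By role, medians of the log2 fold change are given as a description. In line 3 the 6 adenine nucleotide and phosphate carriers had a median of 0.00, the 11 amino acid, acylcarnitine and glutathione carriers 0.07 and the 9 cofactor and pyrimidine nucleotide carriers -0.09. In line 1 these medians were -0.07, 0.03 and -0.08. The 2 uncoupling protein-like carriers had a median of -0.33 in line 3 and -0.03 in line 1, and the 2 mitoferrins 0.19 and -0.12, where each of these pairs holds a member described above. The most abundant members, Slc25a4 and Slc25a3, differed by less than their SE or close to it in both lines, as the plot of fold changes by line shows.

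Sex and line left similarly few differences. Between females and males, DESeq2 gave 2 members at an unadjusted p under 0.05, where 5.23% of all genes reached it. With edgeR 1 member (2.5%) reached it, where 4.62% of all genes did. The edgeR member was the ornithine carrier Slc25a15, with 7.88 ± 2.33 CPM in females (n = 16) and 9.84 ± 2.4 CPM in males (n = 15) and a log2 difference of -0.32 ± 0.16 (edgeR adjusted p = 0.97). Between lines 3 and 1, DESeq2 gave 1 member at an unadjusted p under 0.05, where 3.81% of all genes reached it. With edgeR 1 member (2.5%) reached it, where 3.31% of all genes did. It was Slc25a35, with 2.96 ± 2.15 CPM in line 3 (n = 16) and 1.59 ± 0.885 CPM in line 1 (n = 15) and a log2 difference of 0.88 ± 0.37 (edgeR adjusted p = 1). At an adjusted p under 0.05, 0 members passed for sex and 0 for line with either tool.

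A list of 43 other genes of mitochondrial transport was set beside the family, with uncoupling proteins, the import route of carriers, the pyruvate carrier, outer membrane channels, calcium uptake and enzymes that use the carried metabolites. Of these, 41 passed the read limit and Ucp1 and Ucp3 did not. With edgeR 0 passed an adjusted p of 0.05 for genotype, sex or line. At an unadjusted p under 0.05, 4 were higher and 1 was lower in CYFIP1 OE mice over both lines, 0 higher and 1 lower in line 1, and 5 higher and 1 lower in line 3, beside the 4.3%, 3.96% and 7.95% of all genes given above. DESeq2 gave 5, 1 and 6 genes in these 3 comparisons, beside its 4.67%, 4.37% and 8.52% of all genes, and 0 at the adjusted p. For sex 4 of the 41 were higher in females, where 4.62% of all genes reached that p, and for line 1 of the 41 was higher in line 3, where 3.31% did.

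In line 3 the genes higher at that unadjusted p were Mcu, the pore of the mitochondrial calcium uniporter, Mdh2, the matrix malate dehydrogenase, Sfxn1, a mitochondrial serine carrier, Mtch1, an outer membrane relative of the Slc25 family, and Timm22, the channel that inserts carriers into the inner membrane. Mcu had 19.6 ± 4.25 CPM in CYFIP1 OE and 13.5 ± 2.9 CPM in WT mice (n = 8 each), and each of the 8 CYFIP1 OE values exceeded the mean of WT mice, for a log2 difference of 0.53 ± 0.19 (edgeR adjusted p = 0.513). Mdh2 had 258 ± 56.1 and 201 ± 28.1 CPM (n = 8 each), a log2 fold change of 0.36 ± 0.12 (edgeR adjusted p = 0.513). The low-connectivity mouse held the highest value of its group for Mcu (25.4 CPM), Mdh2 (387 CPM), Mtch1 (495 CPM) and Timm22, which at 18013 CPM in that mouse ran 2508 to 18013 CPM in its group and 2068 to 5268 CPM in WT line 3. The level of Timm22 lay far above those of the other genes named here, and whether reads of another source are counted there was not tested. With the low-connectivity mouse left out, the line 3 differences were 0.48 for Mcu, 0.26 for Mdh2 and 0.36 for Sfxn1, with the unadjusted p still under 0.05, and 0.24 for Mtch1 and 0.40 for Timm22, where it no longer was. Over the 41 genes, 7 were then higher and 1 lower at that p, where 9.05% of all genes reached it. Micu3, Timm9, Tomm70a and Vdac1 were among the higher genes only when that mouse was left out. In line 1 the single gene was Cpt1a, which makes the acylcarnitines that Slc25a20 imports, at -0.79 ± 0.30 (edgeR adjusted p = 1).

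Several members carry a limit of annotation. Slc25a10, Slc25a11, Slc25a18, Slc25a23, Slc25a25, Slc25a26, Slc25a33, Slc25a35, Slc25a37 and Slc25a46 overlap a gene on the opposite strand, and reads of the partners could not be told apart where counting ignored the strand.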

How the data were processed

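RNA from the BLA of 31 mice was sequenced by QuantSeq 3′ Fwd. The authors used STAR to align reads to the GRCm38 build and Salmon to quantify them, and Picard and MultiQC are also in the submitters' processing notes. They deposited 1 table of expected counts (estimated, not normalised) per mouse, with 48709 genes. GENCODE annotation of GRCm38 named 48349 of them. The strand setting of the counting is not given in the sources used here.

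Counts were rounded, a gene was kept if 7 or more mice had at least 10 reads of it, and edgeR 4.0.16 in R 4.3.3 (TMM, quasi-likelihood F test, two-sided) was fitted over all 17428 genes with sex, line and genotype, or with sex and 4 groups for contrasts by line. All mice shared 1 estimate of the spread. The study's own model also held 5 principal components of sequencing statistics, which were not used here. In their place 5 surrogate variables (sva 3.50.0) served as an alternative, as did DESeq2 1.42.0. The study also removed samples with a connectivity Z-score under -2 and called genes at a DESeq2 p under 0.005. The fits here kept the low-connectivity mouse unless stated otherwise and used thresholds of 0.05. CPM are TMM-normalised. Residuals were of log2 CPM with a prior count of 2. Correlations, permutations and scores used numpy 2.4.6, pandas 2.3.3 and scipy 1.17.1 in Python 3.11.15, and figures matplotlib 3.10.9. Other alternatives changed the size factors or the read filter, took each line alone or with its name groups, or left out mice by age or connectivity. Each mouse is a separate animal, and p-values treat the mice as independent. The main fits and the permutation tests held no term for name group. Their p-values therefore do not separate spread between name groups from spread between mice. Depth limits members of a few CPM, where counting error is large.

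Members named with values were the 8 highest and 5 lowest in mean CPM, up to 3 in each direction with the smallest p under 0.05 in each comparison (or the single smallest), the 4 with the largest and the 4 with the smallest spread, the 6 highest and 3 lowest pairs by r, the highest and lowest member for each marker score, and close relatives. Others were named after their values were seen, and some genes are counted but not reported here by name. The members and gene lists were chosen with earlier results of these data known.

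On counts simulated for 17428 genes with 200 changed, edgeR recovered 164 at a true log2 fold change of 1 over both lines with 9 false calls, and DESeq2 171 with 14. At a true log2 difference of 2, edgeR recovered 191 in line 3 with 8 false calls and 169 for the interaction with 6. The changed genes were drawn only from genes with more reads than the lowest members had. Differences smaller than 2 were not simulated in line 3 or for the interaction. These figures therefore give no recovery rate for low members or for smaller differences there.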

Additional observations from a re-analysis of the deposited data

Results flagged for a closer look

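Within each of the 4 groups, the highest and lowest mouse of each member was compared with its nearest neighbour by Dixon's test at the 95% level, which chance exceeds in about 1 of 20 groups. Of 164 such tests of a member or the family sum in a group, 18 had a mouse apart from the rest. The rate of 1 in 20 holds for normally distributed values, and the test was run on CPM without a log scale. The share over all genes was not computed, so this count cannot be read as a result about the members. The low-connectivity mouse (CYFIP1 OE line 3 replicate 1) gave 3 of these, with Slc25a14 at 45.7 CPM (next mouse 77.04), Slc25a39 at 82.4 CPM (next 50.08) and Slc25a46 at 100 CPM (next 66.8).

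WT line 1 replicate 8 was highest in its group for Slc25a4 (496 CPM, next 423.6), Slc25a24 (3.23 CPM, next 1.357) and Slc25a47 (4.69 CPM, next 2.907). WT line 1 replicate 1 was highest for Slc25a5 (214 CPM, next 147) and Slc25a16 (25 CPM, next 14.28). In the same group Slc25a27 reached 20.7 CPM (next 13.03) in replicate 6 and Slc25a39 reached 55.3 CPM (next 44.21) in replicate 3, and the summed CPM of the 40 members reached 1959 (next 1779).

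In WT line 3, Slc25a17 was 31.4 CPM in replicate 1 (next 17.62), Slc25a48 was 6.19 CPM in replicate 8 (next 3.673) and Slc25a12 was lowest at 38.9 CPM in replicate 5 (next 58.34). In CYFIP1 OE line 3, Slc25a11 was 70.5 CPM in replicate 5 (next 49.27) and Slc25a45 was 4.82 CPM in replicate 8 (next 2.827). In CYFIP1 OE line 1, Slc25a16 was lowest at 5.04 CPM in replicate 2 (next 10.82) and Slc25a53 at 6.27 CPM in replicate 1 (next 8.415).

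The genotype difference itself differed between the lines at an unadjusted p under 0.05 for Slc25a24 (-2.04 in line 3 minus line 1, log2), Slc25a22 (-1.04) and Slc25a34 (1.16), none of which passed the adjusted p.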

How the results depend on the processing

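No paired analysis was possible because replicate numbers were given in accession order and pair no mice, and the name groups of line 3 entered only as a term in fits of line 3 alone. With edgeR, 0 members passed the adjusted p under any comparison as first fitted, and counts of members at an unadjusted p under 0.05 moved as follows. With 5 surrogate variables the count went from 0 to 1 in line 1, from 4 to 2 in line 3, from 3 to 0 for the interaction, from 1 to 4 for sex and from 1 to 3 for line, where 4.6%, 4.44%, 3.69%, 4.76% and 4.24% of all genes reached that p. With line 1 alone it was 1 (5.58% of all genes). With at least 10 reads in every mouse it was 1 for the interaction (9.75%) and 0 for line (3.58%), and without a filter it was 0 for sex (8.03%). DESeq2 gave 2 for sex (5.23%). Without the low-connectivity mouse it was 2 for sex (4.62%) and 2 for line (3.29%), and without the mice aged 77 days 0 for line (2.75%). The median r of member pairs was -0.002 in line 1 alone and 0.011 over all mice. Member and score relations that passed numbered 4 in line 1 alone, 10 in line 3 alone and 6 in line 3 without the low-connectivity mouse, an alternative chosen after seeing the data, against 26 over all mice, and fewer mice enter these counts. The cause of the other moves was not tested.

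Of 86 values for named members under alternatives, 69 kept their direction and side of an unadjusted p of 0.05, 16 kept the direction and lost the call, and 1 gained it. Slc25a27 in line 3 kept its call in 10 of 10 alternatives (log2 fold change -0.64 to -0.50). Slc25a37 in line 3 lost it in 1 of 10 (0.30 with 5 surrogate variables), and Slc25a24 in line 3 in 1 of 9 (-1.18 with 5 surrogate variables). Slc25a22 in line 3 lost it in 4 of 10, and in line 3 alone with name groups and without the low-connectivity mouse, a fit chosen after seeing the data, it was -0.18. Slc25a34 for the interaction lost it in 4 of 6 (0.89 to 1.18).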
